A study of Mus musculus with 6 samples.

Results

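The genes described here are 10 members of the BCL2 family, which decide whether a cell's mitochondria release the proteins that start apoptosis. They were chosen by name from a list of pro-survival and pro-death family genes, and the Entrez gene IDs of all 10 were found among the 40808 gene rows of the deposited table. The pro-survival members are Bcl2, Bcl2l1 (BCL-XL), Mcl1 and Bcl2a1b (a mouse copy of A1, or BFL1). The BH3-only members are Bcl2l11 (BIM), Bbc3 (PUMA), Pmaip1 (NOXA) and Bid, and the effectors are Bax and Bak1.

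BAX and BAK oligomerise in the outer mitochondrial membrane and let cytochrome c out, which activates the caspases. Pro-survival proteins hold the effectors in check by binding them and their activators, and BH3-only proteins, induced or activated by stress, bind the pro-survival proteins and free the effectors. In lymphocytes the balance is set for each stage of development: MCL1 and BCL-XL are known for keeping thymocytes alive, BCL2 for keeping mature T and B cells alive, A1 for its induction by NF-kB, and BIM for removing self-reactive cells. Bbc3, Pmaip1 and Bax are textbook targets of p53.

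The libraries were made from spleen of Mus musculus that had received transplanted bone marrow, and the labels name the leukaemia cells of the spleen as the RNA source. Sequencing of mRNA 3′ ends gave 6 libraries, 3 without Dox (replicates 4, 5 and 6) and 3 with Dox (replicates 10, 11 and 12). The transplant is shared by both groups. NOTCH, UVRAG, ITCH and ESCRT are named in the title. Strain, sex, age, transgene, driving promoter, dose and duration are not in the sources used here, nor is it said whether each library is 1 mouse. P-values therefore measure only the spread between these libraries. Values below are given in the order 4, 5 and 6 without Dox, then 10, 11 and 12 with Dox.

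Total counts per library ran from 5541486 to 8725767, so that 3 counts correspond to 0.31 to 0.61 normalized CPM (CPM, counts relative to library size after TMM scaling, a correction for library composition). The groups differed in marker genes of cell types. Of 16 T cell markers, 14 were lower with Dox, and their summed level was 3210 to 3410 CPM without and 302 to 387 CPM with Dox. All 14 B cell markers were higher (147 to 173 CPM against 2420 to 2600 CPM), as were all 14 neutrophil markers (57.8 to 75.7 CPM against 2380 to 2530 CPM; Ly6g was at 0 without Dox) and all 7 dendritic cell markers (11.9 to 18.8 CPM against 124 to 135 CPM). Monocyte and macrophage markers summed to 774 to 905 CPM against 998 to 1290 CPM (4 of 12 tested higher, 3 lower), and erythroid markers to 94400 to 104000 CPM against 133000 to 143000 CPM (5 of 10 higher, 2 lower). Megakaryocyte and platelet markers were higher in 6 of 6 (73.4 to 78.8 CPM against 336 to 373 CPM), endothelial and stromal markers in 3 of 9 with 2 lower (403 to 441 CPM against 450 to 614 CPM), plasma cell markers in 2 of 5 with 2 lower (279 to 296 CPM against 223 to 237 CPM) and NK cell markers in 1 of 3 (3.22 to 6.69 CPM against 14 to 27.1 CPM; Klra8 was at 0 in all libraries and Klre1 at 0 without Dox). Xist had 193 to 324 counts without and 3347 to 5669 with Dox. Together, 4 Y-linked genes had 545 to 801 counts without and 0 with Dox. For every gene, autosomal ones included, Dox and this difference in the sex of the sequenced cells cannot be told apart. In such bulk samples, fewer cells of a type and less RNA per cell cannot be told apart, and the part of these shifts in the results below was not tested.

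All 10 members passed the filter on low counts. With Dox, 5 members rose (Bcl2, Bcl2l1, Mcl1, Bcl2a1b and Bcl2l11), 2 fell (Bbc3 and Bax) and 3 did not pass the threshold (Pmaip1, Bid and Bak1). The threshold is an adjusted p under 0.05 in edgeR's quasi-likelihood test with Benjamini-Hochberg adjustment over all 14110 tested genes. The same fit called 45.6% of all tested genes, 23.6% as higher and 22.1% as lower, so 7 of 10 stands against 6438 of 14110. With library sizes alone in place of TMM scaling, 64.3% of all calls were higher with Dox, against 51.6%. With a log2 fold change beyond 1 in either direction as well, 5 members (Bcl2, Bcl2l1, Mcl1, Bbc3 and Bax) and 38.6% of tested genes were called. Groups did not overlap in 9 of the 10 members, against 59.6% of all tested genes. The median log2 fold change of the members was 0.77, against 0.07 over all tested genes.

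**Figure D1:**
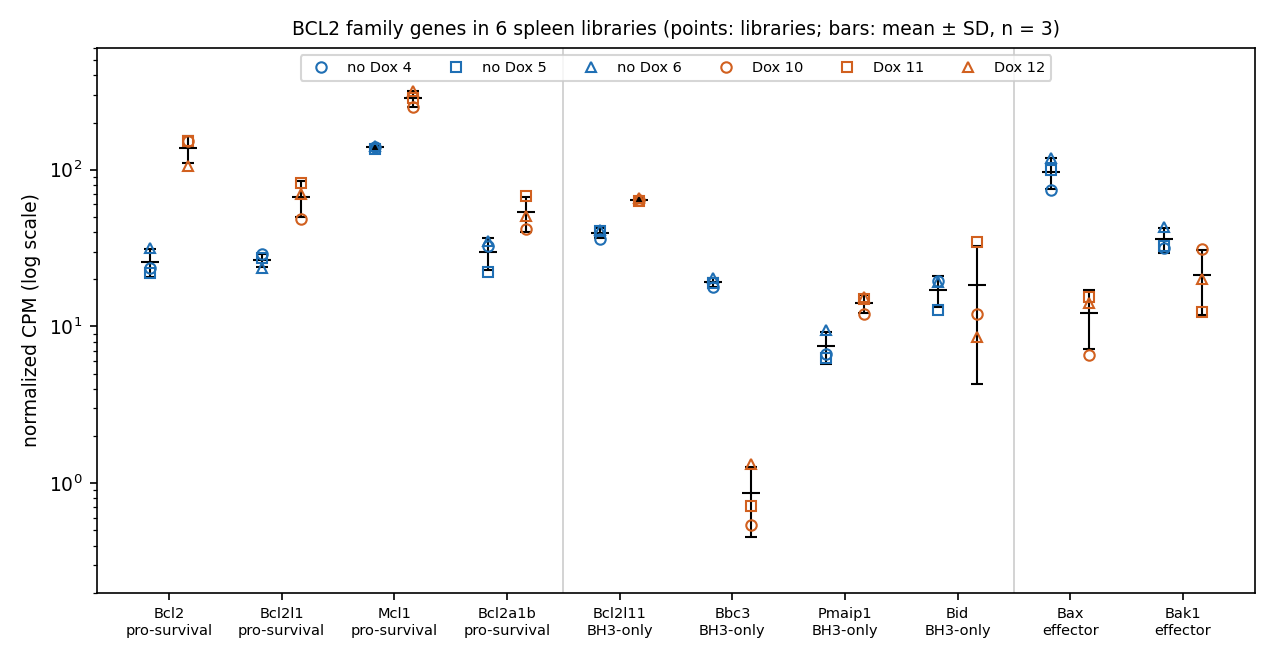
Normalized CPM (vertical, log scale) of the 10 BCL2 family genes in each library (points; blue without Dox, orange with Dox), with the mean and SD of each group of 3. Bbc3 lies between 17.8 and 20.3 CPM without Dox and between 0.544 and 1.32 CPM with Dox, whereas the Bid groups overlap.

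The 4 pro-survival members were higher with Dox, each with groups that did not overlap. Over all tested genes, 23.6% were called higher and 59.6% had groups that did not overlap. The count of 4 became 3 when no Dox replicate 4, 5 or 6 or Dox replicate 11 was left out. It was also 3 at a threshold of 0.01. Bcl2 (Entrez 12043, chromosome 1, 106538176 to 106714290, GRCm38) moved most among the 4 members. Without Dox its level was 23.7, 21.9 and 31.7 CPM (108 to 187 counts). With Dox it was 152, 153 and 106 CPM (805 to 1485 counts). Every library with Dox lay more than 3 times above the highest library without it. The group means were 25.8 ± 5.22 and 137 ± 26.6 CPM (SD, n = 3 each), and Bcl2 rose by 2.41 ± 0.23 (SE) on the log2 scale (edgeR, adjusted p = 3.05e-05). Of all tested genes, 9.62% had a larger log2 fold change.

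The 250 bases before the annotated start of Bcl2 are shown with those of Bax and Bbc3, because these 3 members had the largest changes and both directions are among them. Sequences are from RefSeq (GRCm38.p6), 5′ to 3′ on the gene's strand: chr1:106714291-106714540 (minus strand) for Bcl2, chr7:45466899-45467148 (minus strand) for Bax and chr7:16309333-16309582 (plus strand), the most upstream of 3 starts in the promoter table, for Bbc3. The Bbc3 window lies inside the gene's span, in an intron of a GENCODE transcript that starts further upstream. Capitals mark letters that match 1 of 5 motifs, searched on both strands: the p53 half-site, the NF-kB site, the RBPJ core (TGGGAA), the E-box (CACGTG) and the GC box (GGGCGG).
Bcl2: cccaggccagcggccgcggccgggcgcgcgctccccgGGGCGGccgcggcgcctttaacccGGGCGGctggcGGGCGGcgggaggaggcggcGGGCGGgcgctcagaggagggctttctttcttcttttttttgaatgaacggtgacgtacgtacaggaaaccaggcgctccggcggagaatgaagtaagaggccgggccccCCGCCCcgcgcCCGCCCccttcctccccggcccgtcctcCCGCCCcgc
Bax: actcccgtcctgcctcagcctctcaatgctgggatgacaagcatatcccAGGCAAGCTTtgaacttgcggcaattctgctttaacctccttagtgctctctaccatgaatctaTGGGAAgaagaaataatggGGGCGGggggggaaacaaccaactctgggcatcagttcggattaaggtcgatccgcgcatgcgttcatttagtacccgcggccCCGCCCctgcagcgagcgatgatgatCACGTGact
Bbc3: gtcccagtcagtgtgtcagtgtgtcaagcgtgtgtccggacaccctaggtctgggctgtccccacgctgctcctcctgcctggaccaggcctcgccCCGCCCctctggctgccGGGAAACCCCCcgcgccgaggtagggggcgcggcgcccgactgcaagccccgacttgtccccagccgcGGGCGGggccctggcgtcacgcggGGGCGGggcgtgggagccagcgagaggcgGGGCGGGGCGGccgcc
The Bcl2 window has 7 GC boxes and 36 CpG dinucleotides, at 74.8% G and C, where the median window of 27025 genes has 6 CpG and 52.0%. Its matches are all GC boxes, which 33% of all windows hold. The Bax window holds a p53 half-site starting 201 bases before the start (7.2% of all windows have one), an RBPJ core at 137 bases (21.5%), an E-box at 9 bases (6.0%) and 2 GC boxes. In the Bbc3 window are 5 GC boxes and 2 overlapping NF-kB matches at 137 and 136 bases (3.7%). The first windows of 9 members were searched, and Pmaip1 was left out of the search. These 9 windows held a GC box in 7, an RBPJ core in 2 (Bcl2a1b and Bax), and a p53 half-site, an NF-kB site and an E-box in 1 each. A match only says that these letters occur in these windows.

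Bcl2l1 encodes BCL-XL, the pro-survival protein of thymocytes and erythroid precursors. Its levels were 28.8, 27.2 and 23.6 CPM without and 48.3, 82.6 and 70.5 CPM with Dox. All 3 libraries with Dox were above all 3 without, and the spread was wider with Dox (coefficient of variation 25.9% against 10.1%). Bcl2l1 (Entrez 12048, chromosome 2) rose by 1.34 ± 0.24 (SE) on the log2 scale (edgeR, adjusted p = 0.00147).

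Mcl1 encodes a short-lived pro-survival protein that many lymphocytes and myeloid cells depend on. It was at 140, 136 and 141 CPM without Dox and at 252, 285 and 320 CPM with Dox. The libraries without Dox were nearly equal, with a coefficient of variation of 2.03%, and all libraries with Dox were higher. Mcl1 (Entrez 17210, chromosome 3) rose by 1.04 ± 0.16 (SE) on the log2 scale, a mean ratio of 2.06 (edgeR, adjusted p = 4.64e-04).

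Bcl2a1b is 1 of the mouse A1 genes. Bcl2a1a, Bcl2a1b and Bcl2a1d lie near each other on chromosome 9, and Bcl2a1c lies elsewhere on it and was not compared. The 100 aligned bases upstream of the first 3 show how little they differ there. They end at the RefSeq start of Bcl2a1a and Bcl2a1d and short of that of Bcl2a1b (RefSeq, GRCm38.p6; capitals mark the 2 positions at which the copies differ): chr9:89199129-89199228 (plus strand) for Bcl2a1b, chr9:88956820-88956919 (plus strand) for Bcl2a1a and chr9:88731851-88731950 (minus strand) for Bcl2a1d.
Bcl2a1b: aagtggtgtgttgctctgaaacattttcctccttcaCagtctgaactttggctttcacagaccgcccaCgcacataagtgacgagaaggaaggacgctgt
Bcl2a1a: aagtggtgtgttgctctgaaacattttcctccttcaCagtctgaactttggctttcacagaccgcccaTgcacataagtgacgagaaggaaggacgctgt
Bcl2a1d: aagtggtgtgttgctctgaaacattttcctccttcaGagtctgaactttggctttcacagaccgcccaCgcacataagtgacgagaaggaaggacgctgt
The last 300 bases of the GENCODE transcripts, the part that 3′ end libraries read, differ at 2 positions between Bcl2a1b and Bcl2a1d and at 4 between Bcl2a1b and Bcl2a1a. Of the 226 stretches of 75 bases in that part of Bcl2a1b, 60.2% occur unchanged in Bcl2a1d and 15.5% in Bcl2a1a, so many reads of that length could not be assigned to 1 copy. How the authors treated such reads is not given in the sources used here, and the values of single copies are uncertain. Bcl2a1b also shares 8449 bases with the GENCODE gene Gm29094 on the same strand.

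As deposited, Bcl2a1b was at 32.4, 22.1 and 35.3 CPM without and 41.8, 68.1 and 50.3 CPM with Dox. The highest library without Dox lay just under the lowest with Dox. Bcl2a1b rose by 0.84 ± 0.26 (SE) on the log2 scale (edgeR, adjusted p = 0.0265), a call that was lost when no Dox replicate 4, 5 or 6 or Dox replicate 11 was left out (adjusted p from 0.0677 to 0.161). The 3 copies summed to 68.5, 50.9 and 65.6 CPM without and 109, 141 and 137 CPM with Dox. Tested as 1 feature, their sum rose by 1.06 on the log2 scale (edgeR, adjusted p = 0.00151; over all alternatives of Bcl2a1b, 1.72e-04 to 0.161).

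Among the BH3-only members, 1 rose, 1 fell and 2 did not pass the threshold, which is 50% called, against 45.6% of all tested genes. Bbc3 encodes PUMA, a potent BH3-only protein that binds every pro-survival member. Its levels were 17.8, 19 and 20.3 CPM without Dox, from 119, 94 and 120 counts. With Dox they were 0.544, 0.72 and 1.32 CPM, from 4, 7 and 10 counts. The libraries without Dox lay close together, and every library with Dox had at most 10 counts, of which the lowest, replicate 10, lay just above the level of 3 counts. Bbc3 (Entrez 170770, chromosome 7, 16308398 to 16318334) was 22.1 times lower with Dox by group means, and its log2 fold change was -4.45 ± 0.48 (SE; edgeR, adjusted p = 5.77e-05). Of all tested genes, 1.27% had a lower fold change.

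Bcl2l11 encodes BIM, the BH3-only protein of lymphocyte selection and of death after cytokine withdrawal. It was at 36.1, 40.9 and 41.2 CPM without and at 63.7, 63.6 and 66.2 CPM with Dox. The groups did not overlap, and the libraries with Dox differed less than those of any other member (coefficient of variation 2.25%). Bcl2l11 (Entrez 12125, chromosome 2) rose by 0.71 ± 0.18 (SE) on the log2 scale (edgeR, adjusted p = 0.0096). This call was lost in 5 of 16 alternatives: with no filter on low counts (adjusted p = 0.0956), with a length trend removed (0.0674) and in each fit that left out 1 no Dox library (0.0506 to 0.0749; over all alternatives, 0.00145 to 0.0956).

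Pmaip1 encodes NOXA, which binds MCL1 and A1 and marks MCL1 for degradation. It was at 6.72, 6.28 and 9.49 CPM without Dox (31 to 56 counts) and at 12, 15 and 15.4 CPM with Dox (88 to 146 counts). Although the groups did not overlap, the log2 fold change of 0.91 ± 0.36 (SE) missed the threshold (edgeR, adjusted p = 0.0616). It passed in 5 of 16 alternatives, with adjusted p-values from 0.0194 to 0.277 over all of them. Pmaip1 (Entrez 58801) and Bbc3 are both p53 targets. Their log2 fold changes differed in sign, that of Pmaip1 without a call, and the part of p53 was not tested.

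Bid encodes the protein that caspase-8 cleaves to link death receptors to mitochondria. Its levels were 19.4, 12.8 and 19.2 CPM without and 12, 34.6 and 8.57 CPM with Dox. Replicate 11 with Dox was the highest of all 6 libraries and replicate 12 the lowest, so the groups overlapped. The log2 fold change was 0.11 ± 0.49 (SE; edgeR, adjusted p = 0.876) and became -0.76 without replicate 11 (adjusted p = 0.117; over all alternatives, 0.117 to 0.952). The 3′ ends of Bid and of another family gene, Bcl2l13, overlap by 913 bases on opposite strands of chromosome 6 in GENCODE, and the strand setting of the counting is not stated, so their reads cannot be told apart with certainty. Bcl2l13 was at 41.5, 40.5 and 37 CPM without and 49.3, 37.1 and 21.5 CPM with Dox.

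Of the effectors, Bax passed the threshold and was lower with Dox, whereas Bak1 did not pass it. Bax was at 73.9, 99.3 and 118 CPM without Dox (490 to 696 counts) and at 6.53, 15.5 and 14.2 CPM with Dox (48 to 151 counts). The lowest library without Dox was more than 4 times the highest with Dox. Group means were 97.1 ± 22.1 and 12.1 ± 4.87 CPM (SD, n = 3 each), an 8.02-fold difference. The log2 fold change of Bax (Entrez 12028, chromosome 7, 45461695 to 45466903) was -2.99 ± 0.33 (SE; edgeR, adjusted p = 7.52e-05). In GENCODE, Bax shares 915 bases with Gm45808 on the same strand, and reads there cannot be assigned to 1 gene by strand.

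Bak1, the other effector, was at 31.8, 32.6 and 43.4 CPM without and 31, 12.4 and 20.2 CPM with Dox. Replicate 10 with Dox came within 1 CPM of the lowest library without Dox. The log2 fold change was -0.77 ± 0.34 (SE; edgeR, adjusted p = 0.0913), and it was -1.17 when Dox replicate 10 was left out (adjusted p = 0.0187; over all alternatives, 0.0172 to 0.311). Bak1 (Entrez 12018, chromosome 17) lies inside the annotated span of Ggnbp1 on the other strand, a gene with at most 15 counts in any library.

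**Figure D2:**
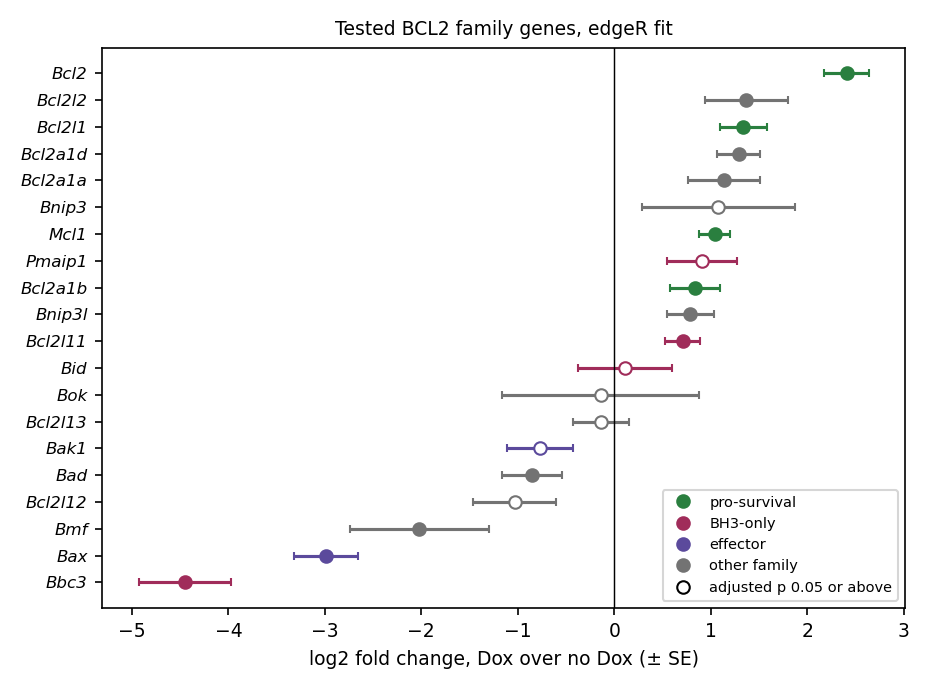
Log2 fold change (Dox over no Dox, with SE) of the 20 tested BCL2 family genes, coloured by role. Filled points passed an adjusted p under 0.05. Bcl2 is at 2.41 and Bbc3 at -4.45. The 4 pro-survival members of the set lie above 0, as do Bcl2l2, Bcl2a1a and Bcl2a1d, and both effectors lie below it.

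The split of counts among the 10 genes does not depend on how libraries are scaled. The libraries read 1 end of each mRNA, so counts were not divided by length. Fold changes nevertheless moved with transcript length, as described below. That trend was -0.95 (log2) at the length of Bax and 0.59 at that of Bcl2. The shares and ratios given here were not corrected for it. Pro-survival genes took 54.8%, 49.5% and 47.9% of the members' counts without Dox and 79.7%, 80.6% and 81.3% with Dox. Effector genes took 25.7%, 31.6% and 33.4% without and 6.06%, 3.82% and 5.12% with Dox. BH3-only genes took 19.5%, 18.9% and 18.7% without and 14.2%, 15.6% and 13.6% with Dox. For each of the 3 roles the groups did not overlap in share. On the CPM scale, the summed level of the BH3-only genes was 80, 79 and 90.2 without and 88.2, 114 and 91.5 with Dox, so that these groups overlapped and the lower share went with no lower sum. The members together had 2062 to 2851 counts per library without Dox and 4551 to 7101 with Dox.

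**Figure D3:**
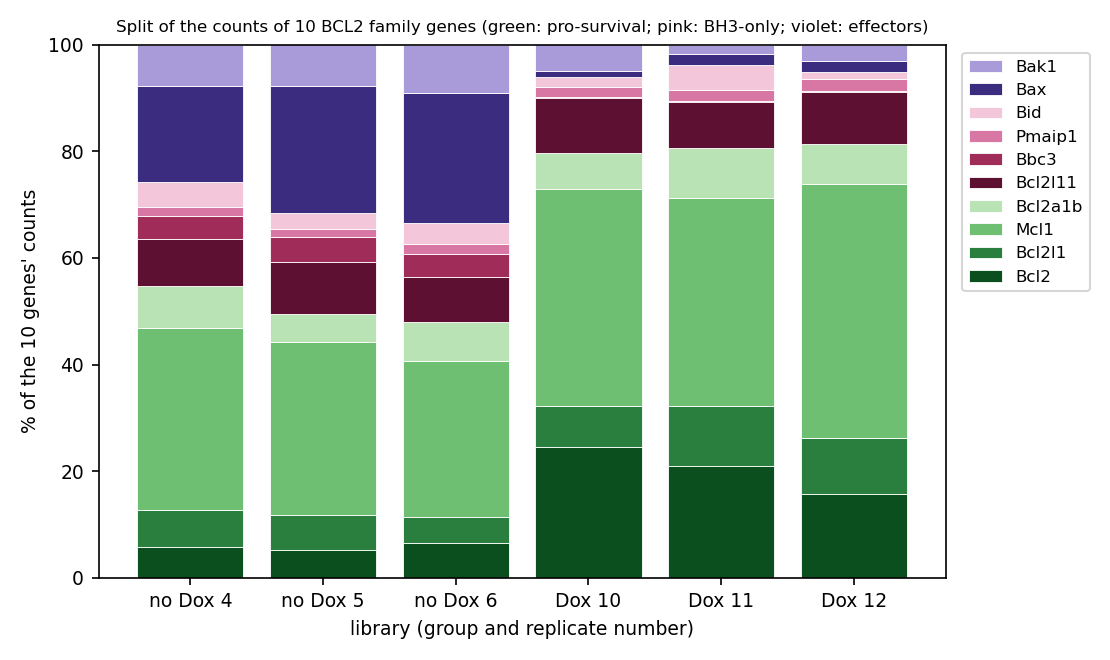
Share of each gene (vertical, %) in the summed counts of the 10 BCL2 family genes, for each of 6 libraries. Bax takes 18 to 24.4% of the counts without Dox and 1.05 to 2.13% with Dox, and Bcl2 takes 5.24 to 6.56% without and 15.8 to 24.5% with Dox.

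Ratios within a library describe how unequal the changes were. There were 0.321, 0.22 and 0.269 Bcl2 counts for each Bax count without Dox and 23.2, 9.83 and 7.45 with Dox. Part of this shift goes with transcript length. With the length trend removed, the log2 fold change was 1.88 for Bcl2, against 2.41, and -1.98 for Bax, against -2.99. The ratio of Bax to Bak1 counts was 2.32, 3.04 and 2.72 without and 0.211, 1.26 and 0.706 with Dox, so that Bax was the more counted effector in each library without Dox and in 1 library with it. By contrast, Mcl1 had 20.8, 21.6 and 14.9 counts for each count of Pmaip1, whose product antagonises MCL1, without Dox, and 21, 19 and 20.7 with Dox, and these groups overlapped.

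On the CPM scale, the order of the members' levels also differed between the groups. Without Dox, Mcl1 (139 CPM) and Bax (97.1 CPM) were the highest, each clear of the next gene. Bcl2l11, Bak1, Bcl2a1b, Bcl2l1 and Bcl2 followed between 39.4 and 25.8 CPM, with ranges that overlapped from each gene to the next. Bbc3 and Bid (19.1 and 17.1 CPM) also overlapped, and Pmaip1 was the lowest at 7.5 CPM. With Dox, Mcl1 (286 CPM) was followed by Bcl2 (137 CPM), again each clear of the next gene. Bcl2l1, Bcl2l11 and Bcl2a1b (67.2, 64.5 and 53.4 CPM) overlapped in turn, as did Bak1, Bid, Pmaip1 and Bax (21.2 to 12.1 CPM), and Bbc3 was the lowest at 0.861 CPM.

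The rest of the family was compared in the same fit. Of 16 other genes, 10 were tested, 4 rose, 2 fell and 4 did not pass the threshold, with a median log2 fold change of 0.33. That is 60% called, against 45.6% of all tested genes. Bcl2l2, which encodes the pro-survival protein BCL-W, was at 5.22, 6.28 and 15.6 CPM without and 20.8, 27 and 22.4 CPM with Dox. It rose by 1.37 ± 0.43 (SE) on the log2 scale (edgeR, adjusted p = 0.0246). Bcl2l2 shares 4794 bases with the GENCODE gene Gm20521 on the same strand. The A1 copies Bcl2a1d (1.29 ± 0.22 (SE), adjusted p = 9.02e-04) and Bcl2a1a (1.14 ± 0.37, adjusted p = 0.0302) rose on the log2 scale, and so did the mitophagy receptor gene Bnip3l (0.79 ± 0.24, adjusted p = 0.0206).

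The 2 that fell are BH3-only genes. Bmf, linked to the actin cytoskeleton, was at 7.16, 7.09 and 5.26 CPM without and 2.86, 1.13 and 0.791 CPM with Dox (log2 fold change -2.02 ± 0.72 (SE), edgeR, adjusted p = 0.0432). Bad, which growth factor signalling keeps inactive, was at 28.4, 27.8 and 32.5 CPM without and 22.3, 16.4 and 10.5 CPM with Dox (log2 fold change -0.85 ± 0.31 (SE), adjusted p = 0.0481). The groups were separate for both genes, but Bad was at -0.16 with a length trend removed (adjusted p = 0.701) and at -0.53 with library sizes alone (0.207). The call of Bmf was lost with library sizes alone (0.0845), upper-quartile factors (0.0533), no filter (0.0595) and group weights in limma-voom (0.0754), and its log2 fold change was -2.75 without Dox 10 (0.0152). Log2 fold changes of the 4 others were -0.14 for Bok, -0.14 for Bcl2l13, -1.03 for Bcl2l12 and 1.08 for Bnip3 (adjusted p from 0.0761 to 0.922). Bcl2l12 shares 1065 bases with Irf3 on the other strand. The count of 6 depended on single libraries: it was 1 when no Dox replicate 4 or 5 was left out, 2 when no Dox replicate 6 was, and 3 when Dox replicate 11 was. Bcl2a1d kept its call in all 16 alternatives. Of the 6 fits that left out 1 library, the call was lost in 3 for Bcl2l2 (no Dox 4 and 5, Dox 11; adjusted p up to 0.107), in 4 for Bcl2a1a (no Dox 4, 5 and 6, Dox 12; up to 0.137) and in 5 for Bnip3l (all but Dox 12; up to 0.15). It was lost in 5 each for Bad and Bmf (all but Dox 10; adjusted p up to 0.124 and 0.159). Bcl2l10, a family gene of the oocyte, had 0 counts in all libraries, and Bcl2a1c, Bik, Hrk, Bcl2l14 and Bcl2l15 had at most 18 counts in any library and were not tested.

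Genes downstream of the family were counted from lists of caspases and apoptosome genes and of caspase inhibitors. Of 13 tested genes of the first list, 1 rose and 4 fell (median log2 fold change -0.84). That is 38.5% called, against 45.6% of all tested genes. Cycs, which encodes cytochrome c, was at 583, 593 and 539 CPM without and 103, 73.7 and 110 CPM with Dox (log2 fold change -2.58 ± 0.19 (SE), edgeR, adjusted p = 6.06e-06). Aifm1 (-0.92) and Dffb (-1.21), a flavoprotein and a nuclease of apoptosis, also fell. Htra2, a mitochondrial protease gene with 2 to 67 counts, had a log2 fold change of 2.67 ± 0.83 (SE; adjusted p = 0.0246) and rose. Cycs kept its call in all 16 alternatives. Those of Aifm1 and Dffb were lost with the length trend removed (adjusted p = 0.103 and 0.122), with library sizes alone (0.123 and 0.11) and in 4 fits each that left out 1 library (no Dox 4, 5 and 6 and Dox 11 for Aifm1, no Dox 4 and 6 and Dox 10 and 12 for Dffb; adjusted p up to 0.0836 and 0.147). That of Htra2 was lost with no filter (adjusted p = 0.0683), with limma-voom (0.0763) and without no Dox 5 or 6 or Dox 11 or 12 (up to 0.108).

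Of the 8 genes listed as caspase inhibitors, 6 rose and 2, Birc5 and Birc6, did not pass the threshold (median log2 fold change 1.18). That is 75% called, against 45.6% of all tested genes. Naip2 and Naip5 are 2 of the 6 that rose. Birc3, which encodes cIAP2, a ubiquitin ligase of TNF receptor signalling, was at 7.16, 15.8 and 13.4 CPM without and 93.8, 84.9 and 56 CPM with Dox (log2 fold change 2.70 ± 0.33 (SE), edgeR, adjusted p = 1.32e-04). Naip5, an inflammasome sensor of macrophages whose protein carries the domains of this family, went from 4.78, 1.82 and 3.05 to 20, 30.4 and 24 CPM (2.92 ± 0.42, adjusted p = 3.40e-04). Naip2 rose as well, and since the Naip genes resemble each other the values of each are uncertain. Birc2 (1.69), Xiap (0.66) and Cflar (0.60), an inhibitor of caspase-8, rose on the log2 scale. Birc5 (survivin), a gene of dividing cells, was at -0.48 ± 0.19 (SE; adjusted p = 0.0647, unadjusted 0.0312). The calls of Xiap and Cflar were lost with a length trend removed (0.18 and 0.15; adjusted p = 0.356 and 0.592), and that of Cflar in 8 of its 16 alternatives, among them every fit that left out 1 library except Dox 12 (adjusted p up to 0.245). That of Xiap was also lost with no filter (0.0565) and without no Dox 5 (0.0581).

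**Figure D4:**
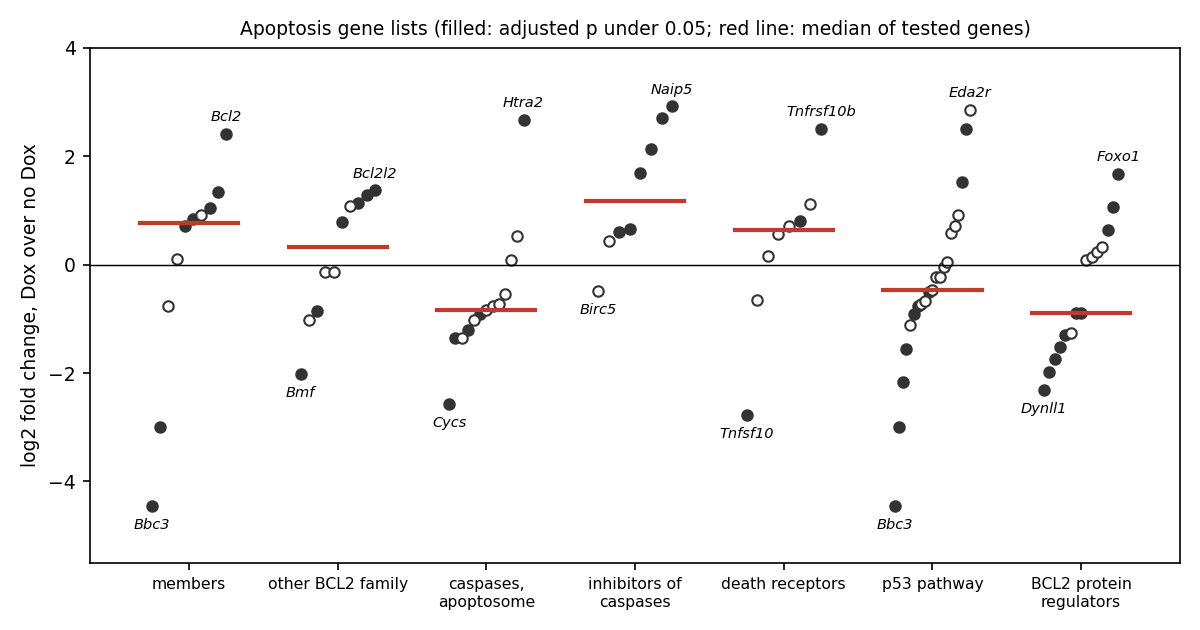
Log2 fold change (Dox over no Dox) of each tested gene of 7 lists, with the median of each list in red. Filled points passed an adjusted p under 0.05. The list of caspase inhibitors, which includes Naip2 and Naip5, has a median of 1.18, and that of caspases and apoptosome genes one of -0.84. Bax, Bbc3 and Pmaip1 are drawn among the members and in the p53 list, and genes of 2 lists are drawn in both.

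Of 21 tested p53 pathway genes, 2 rose and 7 fell (median log2 fold change -0.46), and the list includes Bax, Bbc3 and Pmaip1. The calls made up 42.9% of the list, against 45.6% of all tested genes. By direction, 9.52% were higher and 33.3% lower, against 23.6% and 22.1%. Bax and Bbc3 are 2 of the 7 that fell. The others that fell were Ei24 (-2.17), Zmat3 (-1.55), Ccng1 (-0.92), Btg2 (-0.76) and Trp53inp1 (-0.51). Those that rose were Mdm4 (1.53 ± 0.24 (SE), edgeR, adjusted p = 6.08e-04), an inhibitor of p53, and the death receptor gene Tnfrsf10b (2.51 ± 0.71, adjusted p = 0.0164). Trp53 itself was at 108, 98.7 and 134 CPM without and 79.3, 91.2 and 76.7 CPM with Dox, and Cdkn1a, its cell cycle target, at 32.7, 32.8 and 23.4 against 18.5, 22.4 and 14.4 CPM. Neither passed the threshold (adjusted p = 0.062 and 0.0721), although the groups did not overlap in either gene. Ei24, Zmat3 and Mdm4 kept their calls in all 16 alternatives. Those of Btg2, Ccng1 and Trp53inp1 were lost with library sizes alone (adjusted p = 0.0624, 0.119 and 0.443), that of Ccng1 also without no Dox 4 or 5 or Dox 10 (up to 0.0981), and that of Trp53inp1 without any 1 library but Dox 10 (up to 0.124).

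Death receptor genes (8 tested) gave 2 that rose, Tnfrsf10b and Ripk1 (0.81 ± 0.24 (SE), edgeR, adjusted p = 0.0198), and 1 that fell, Tnfsf10, which encodes the ligand TRAIL (-2.78 ± 0.98, adjusted p = 0.0405). That is 37.5% called, against 45.6% of all tested genes. All 3 calls were lost when no Dox replicate 4, 5 or 6 was left out (adjusted p from 0.0622 to 0.116), that of Tnfrsf10b also with limma-voom (0.107) and without Dox 11 (0.0747), where the log2 fold change was 1.89, and that of Tnfsf10 without Dox 12 (0.0635) and with library sizes alone (0.0656). Tnfsf10 had 35, 0 and 11 counts with Dox, and its log2 fold change was -4.35 without Dox 10, -2.19 without Dox 11 and -4.59 with limma-voom (edgeR or limma, adjusted p = 0.0106, 0.0138 and 0.0143). Ripk1 was at 0.37 with the length trend removed (adjusted p = 0.248). Of 15 tested regulators of BCL2 family proteins, 3 rose and 7 fell (median -0.90), which is 66.7% called, against 45.6% of all tested genes. Foxo1, a transcription factor whose relatives drive Bcl2l11, rose by 1.68 ± 0.21 (SE) on the log2 scale (adjusted p = 1.34e-04). Huwe1, a ubiquitin ligase of MCL1, rose by 1.07 ± 0.23 (adjusted p = 0.00355), and Usp9x, which removes ubiquitin from MCL1, was the third (0.63, adjusted p = 0.0105). With a length trend removed these 2 were at -0.01 and -0.28. Dynll1, the dynein light chain that binds BIM, had a log2 fold change of -2.32 ± 0.21 (SE; adjusted p = 2.00e-05), and Dynll2, the chain that binds BMF, one of -1.52. The outer membrane channel genes Vdac1 (-1.74), Vdac2 (-1.30) and Vdac3 (-1.98 ± 0.22 (SE), adjusted p = 6.55e-05) fell together, with Mapk8 and Ywhaz. The call of Mapk8 was lost with library sizes alone (adjusted p = 0.162) and without no Dox 4, 5 or 6 or Dox 12 (up to 0.116), and that of Usp9x without no Dox 5 or 6 (up to 0.111).

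Fold changes in these libraries also moved with transcript length. The median log2 fold change was -1.24 for 606 genes whose longest coding transcript is under 1000 bases, and 0.78 for 716 genes of 8000 bases or more. Bax (1100 bases) and Bbc3 (1814 bases) are shorter than the median tested gene of 3187 bases, and Bcl2 (7191 bases) is longer, whereas Bcl2a1b, the shortest member at 817 bases, rose. With this trend removed, a setting chosen after seeing the data, the log2 fold change of Bcl2 was 1.88, that of Bax -1.98 and that of Bbc3 -3.94 (adjusted p = 1.11e-04, 7.87e-04 and 1.25e-04; over all alternatives at most 5.69e-04, 7.87e-04 and 0.00609). Bcl2a1b was at 2.13 under it. These 4 genes kept their direction and their call with the trend removed, whereas Bcl2l11 (5036 bases) lost its call, at 0.45 (adjusted p = 0.0674). Among other called genes, the log2 fold change with the trend removed was 2.43 for Bcl2a1a, 2.54 for Bcl2a1d, 1.02 for Foxo1, -1.22 for Vdac3 and -2.14 for Zmat3, and these calls were kept.

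**Figure D5:**
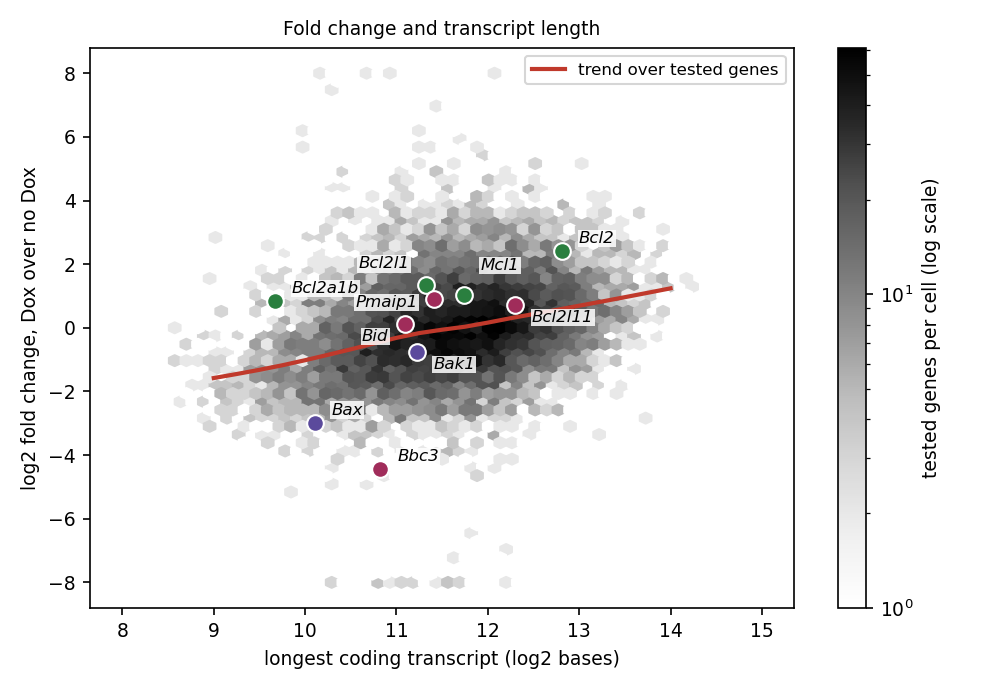
Log2 fold change (vertical; values beyond 8 in either direction are drawn at 8) against the length of the longest coding transcript (horizontal, log2 bases) for 11834 tested genes (grey cells), with the trend in red and the 10 members as coloured points. Bax and Bbc3 lie below the trend at their lengths, and Bcl2 and Bcl2a1b above it.

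The genes whose pattern over the 6 libraries was nearest to that of Bcl2, the member with the largest rise, were Pf4, a platelet chemokine gene, Ly86, a gene of B cells and myeloid cells, and H2-T24. Their root mean square distances from Bcl2 in centred log2 CPM were 0.07, 0.08 and 0.13. For Bbc3, the member with the largest fall, the nearest were Cenpv, Rbis and 2300009A05Rik, at 0.30, 0.34 and 0.34. The libraries form 2 groups, so this likeness mostly states that the genes differ between the groups by a like amount.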

How the data were processed

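Raw counts per gene (Entrez ID) and library were deposited by the authors in 1 table, made from 3′ end libraries (QuantSeq, forward kit), per the labels' protocols. STAR, featureCounts and build GRCm38 are named, per the submitters' processing notes. Versions, annotation, strand setting and multi-mapping are not given in the sources used here. All 6 columns matched a title. Of 40808 gene IDs, 39374 had a symbol in RefSeq GRCm38.p6, and overlaps and lengths came from GENCODE.

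Counts were filtered (filterByExpr, minimum count 10, total 15), TMM-scaled and tested with edgeR 4.0.16 (glmQLFit and glmQLFTest) in R 4.3.3 on all 6 libraries without covariates. All adjusted p-values come from such fits across all genes. The code was checked on simulated counts. Alternatives were other scaling factors, other filters, haemoglobin genes left out, limma-voom (limma 3.58.1), DESeq2 1.42.0, a threshold of 0.01, each library left out and A1 copies summed. Removal of the length trend and group weights in voom were chosen after seeing the data.

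Named genes are the 10 members, other family genes with a mean of 10 counts or more, and, per list, the 2 highest and 2 lowest fold changes among called genes with separate groups. For likeness of pattern, the 3 genes nearest to the most raised and most lowered member were taken among those with at least the median level of tested genes. Other called genes, and Trp53, Cdkn1a, Bcl2l10, Ggnbp1, Birc5, Birc6 and the family genes not tested, were named after their values were seen. A gene that the rule names is not reported here. Cell type markers are given as sums. The members and lists were chosen with earlier results of these data known. The level of 3 counts covers counting error only.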

Additional observations from a re-analysis of the deposited data

How the results depend on the processing

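No paired analysis was possible because no replicate number occurs in both groups. Bcl2, Bcl2l1, Mcl1 and Bax kept their direction and call in all 16 alternatives and Bbc3 in 15 (a minimum of 10 counts in every library removed it). A threshold of 0.01 left 1 other family gene and 19 genes of the apoptosis, p53 and regulator lists called, against 6 and 30. Leaving out 1 library gave 1 to 5 and 19 to 29. The log2 fold change of Bid was -0.038 with no filter, -0.085 with limma-voom and -0.083 with group weights, and ran from -0.762 to 0.429 without single libraries. Bok was at 0.201 with library sizes alone and 0.586 with the length trend removed, and ran from -1.631 to 0.313 without single libraries. Bcl2l13 was at 0.179 with library sizes alone and ran from -0.462 to 0.103. With the length trend removed, Bcl2l12 was at 0.011, Huwe1 at -0.008, Trp53 at 0.017 and Usp9x at -0.281. The cause was not tested. Among other values of single genes, 684 kept direction and call, 109 lost the call and 16 gained it. Over all genes, the median change was 0.38 (log2) with library sizes alone and 0.25 with DESeq2, against 0.07. Among other called genes, the call was lost in 10 of 16 alternatives for Bad, 8 for Cflar and Trp53inp1, 7 for Dffb and Mapk8, 6 for Aifm1, 5 for Bcl2a1a, Bnip3l and Ripk1, 4 for Ccng1 and Usp9x, 3 for Bcl2l2 and Xiap and 1 for Btg2 and Huwe1, and in 9 of 15 for Bmf, 6 for Htra2 and 5 for Tnfrsf10b and Tnfsf10. Depth limits Bbc3 with Dox (4 to 10 counts), Bok and Bnip3.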
